A study of Mus musculus with 5 samples.

Results

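The genes described here are 9 genes of Tyrobp signalling and of the receptors for the Fc part of immunoglobulin G, measured in newborn tissue of the dLGN, the dorsal lateral geniculate nucleus, which relays retinal signals to the visual cortex. They are Tyrobp, Fcer1g, Trem2, Fcgr1, Fcgr2b, Fcgr3, Syk, Plcg2 and Hcst. All probe sets whose platform symbol was 1 of these names were taken, which gave 18 of the 45037 probe sets tested. Each of the 9 genes had at least 1 probe set. The knockout group held 2 arrays of Sema6A KO mice, which lack both working copies of Sema6a, a gene for a transmembrane semaphorin. The control group held 3 arrays of Sema6A heterozygous mice, which keep 1 copy, so no wild-type tissue was measured here. All mice were on a C57BL/6 background and were taken at P0, the day of birth. Every array read RNA pooled from several pups of 1 genotype out of different litters, so an SD below is a spread between pools, and it carries no information on single animals.

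Tyrobp encodes DAP12, a small membrane adaptor with almost no outer part that pairs with receptors such as the product of Trem2, a lipid-sensing receptor of microglia. Fcer1g encodes the common Fc receptor gamma chain, the adaptor on which the activating receptors Fcgr1 and Fcgr3 depend for signal and surface display. Both adaptors carry an immunoreceptor tyrosine-based activation motif (ITAM), which binds the kinase Syk once it is phosphorylated, and Syk in turn acts on the phospholipase encoded by Plcg2. Fcgr2b is the inhibitory member of the Fc gamma receptor family, and Hcst encodes DAP10, a further small adaptor that recruits phosphatidylinositol 3-kinase. In the brain most of these genes are known from microglia, the resident macrophages, and plexin-A1, a semaphorin receptor, can form a complex with Trem2 and DAP12 that answers Sema6D.

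The adaptors and an activating Fc receptor stood highest among the differences, while the inhibitory receptor, the kinase Syk and Hcst showed little. Tyrobp rose 5.52-fold and Fcgr3 rose 4.22-fold in the knockout, and they were the only 2 of the 18 probe sets past an adjusted p of 0.05 in limma. Over the array 0.0644% of probe sets passed that threshold upwards and 0.00888% downwards. At their brightest probe sets Fcer1g and Trem2 had fold values of 3.88 and 2.48 and missed the threshold. The dimmer probe set of Fcgr1 was lower in the knockout and also missed it, at -1.56 on the log2 scale (limma adjusted p = 0.0649). The dimmer one of Trem2 gave -0.19. Over the 9 genes, each taken at its brightest probe set, the median log2 fold change was 0.90, against 0.01 over all 18193 genes so taken. The median over the 9 genes was 0.86 without knockout replicate 1. These members were chosen with earlier results of these data known, so that median is a description and has no test.

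**Figure D1:**
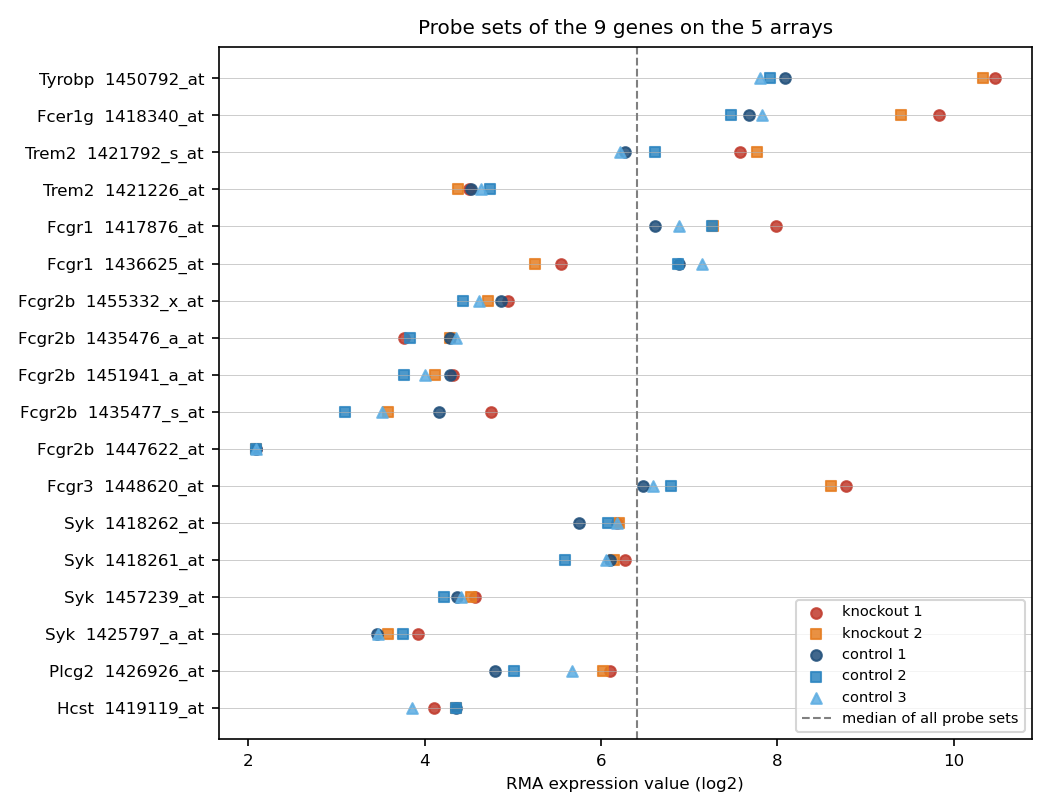
RMA expression value (log2, horizontal axis) of each of the 18 probe sets on the 2 knockout arrays (red and orange) and the 3 control arrays (blue shades), with the median of all probe sets at 6.41 as a dashed line. Tyrobp, Fcer1g, Fcgr3 and the brighter Trem2 probe set have both knockout arrays to the right of every control, a Fcgr1 probe set has them to the left, and the Fcgr2b, Syk, Plcg2 and Hcst probe sets lie under the dashed line.

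Some facts of the arrays bear on all values. Sema6a itself read 7.81 and 7.85 on the log2 scale in the knockout and 10.39 to 10.65 in the controls at its brightest probe set (log2 fold change -2.68, SE 0.12, limma adjusted p = 0.0236). Array medians lay between 6.39 and 6.42. Knockout replicate 1 stood apart in 2 ways. Its prethalamic and GABAergic marker genes exceeded the mean of the controls by a median of 2.69, against 0.13 in knockout replicate 2, and its 3′ Gapdh control probe set exceeded the 5′ one by 2.34, against 0.77 to 1.33 on the other arrays. Knockout replicate 2 had the lowest Xist, 4.10 against 10.79 or more elsewhere at the brightest probe set, and the labels give no sex. The part of these features in the results below was not tested. Values without knockout replicate 1 stand beside the members below.

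The adaptor Tyrobp had 1 probe set, 1450792_at. It read 10.47 and 10.33 on the log2 scale in the knockout pools and 8.09, 7.92 and 7.80 in the control pools. The groups did not overlap, and the gap between them was many times wider than the spread within either. The means were 10.40 ± 0.10 (SD, n = 2) and 7.94 ± 0.14 (SD, n = 3). Knockout minus control was 2.46 on the log2 scale, with an SE of 0.13 and a 95% interval of 2.14 to 2.79 (limma adjusted p = 0.0236). It was 2.40 without knockout replicate 1. Tyrobp ranked 14 of 18193 genes by its log2 fold change. With any 1 array left out the difference lay between 2.40 and 2.54, but its adjusted p was never below 0.0698. With the replicate number as a block the adjusted p was 0.298.

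The gamma chain gene Fcer1g, at 1418340_at, read 9.83 and 9.40 in the knockout and 7.68, 7.47 and 7.82 in the controls. Both knockout pools were above every control, with more spread between them than for Tyrobp. The log2 fold change was 1.95 (SE 0.18, 95% interval 1.50 to 2.41, limma adjusted p = 0.0630), which missed the threshold. It was 1.74 without knockout replicate 1. A further quantile normalisation, an intensity trend in eBayes and a filter on dim probe sets each brought the adjusted p under 0.05. The lowest, 0.0329, came with the filter, which kept probe sets by their higher group mean and so depended on the group difference.

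Among the ligand-binding receptors that use the gamma chain, Fcgr3 encodes the low-affinity activating receptor for immunoglobulin G. Its single probe set, 1448620_at, read 8.78 and 8.61 in the knockout pools and 6.47, 6.80 and 6.58 in the controls. No knockout value came near a control value. The means were 8.69 ± 0.12 (SD, n = 2) and 6.62 ± 0.16 (SD, n = 3), and the log2 fold change was 2.08 (SE 0.14, 95% interval 1.72 to 2.43, limma adjusted p = 0.0332). The difference was 1.99 without knockout replicate 1, and the call was lost with array weights (limma adjusted p = 0.0521), with the replicate number as a block (0.329) and with any 1 array left out.

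Fcgr1, the high-affinity receptor of the family, gave opposite readings at its 2 probe sets. At the brighter one, 1417876_at, the knockout pools read 7.99 and 7.27 and the controls 6.61, 7.26 and 6.88, so knockout replicate 2 lay only just above the highest control. The log2 fold change there was 0.71 (SE 0.28, limma adjusted p = 0.446), and without knockout replicate 1 it was 0.35. At 1436625_at the knockout pools read 5.55 and 5.26 and the controls 6.89, 6.87 and 7.14, all controls being higher. That difference was -1.56 (SE 0.15, 95% interval -1.95 to -1.18, limma adjusted p = 0.0649), and it was -1.71 without knockout replicate 1. Which transcript each of the 2 probe sets reads was not tested, so no direction is given for Fcgr1 as a gene.

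Fcgr2b, whose product carries an inhibitory motif and damps signals of the activating receptors, had 5 probe sets. All of them were under the array median of 6.41 on every array. The brightest, 1455332_x_at, read 4.94 and 4.71 in the knockout and 4.87, 4.44 and 4.62 in the controls, so the groups overlapped. Its log2 fold change was 0.19 (95% interval -0.23 to 0.60), and the other 4 probe sets lay between -0.13 and 0.58, all with overlapping groups. The adjusted p-values ranged from 0.678 to 0.996 in limma. The widest interval, at 1435477_s_at, ran from -0.54 to 1.70. That probe set read 4.75 and 3.58 in the knockout and 4.17, 3.10 and 3.52 in the controls, a wide spread in both groups. At these low signals a change of the size seen for Fcgr3 lay outside each interval, but RMA compresses differences near background.

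Trem2, the receptor that needs DAP12, was read by 2 probe sets that differed. The brighter one, 1421792_s_at, read 7.58 and 7.77 in the knockout pools and 6.28, 6.61 and 6.21 in the controls. Every knockout value was above every control, and the log2 fold change was 1.31 (SE 0.16, 95% interval 0.90 to 1.71, limma adjusted p = 0.0940). It was 1.40 without knockout replicate 1. The dimmer one, 1421226_at, read 4.50 and 4.38 against 4.52, 4.74 and 4.64, a difference of -0.19 (limma adjusted p = 0.614). It was below the array median everywhere. A name ending in s_at marks probes shared by several transcripts, and whether the brighter probe set reads Trem2 alone was not tested.

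Downstream of the adaptors, the phospholipase gene Plcg2 had 1 probe set, 1426926_at. It read 6.10 and 6.02 in the knockout and 4.80, 5.01 and 5.68 in the controls. The groups did not overlap, but control replicate 3, at 5.68, lay much closer to the knockout pools than the other controls. The log2 fold change was 0.90 (SE 0.27, 95% interval 0.22 to 1.58, limma adjusted p = 0.341), and with any 1 array left out it lay between 0.72, without control replicate 1, and 1.16, without control replicate 3. It was 0.86 without knockout replicate 1. All 5 values were under the array median.

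Syk, the kinase that docks on phosphorylated ITAMs, had 4 probe sets, all under the array median on every array. The brightest, 1418262_at, read 6.19 and 6.21 in the knockout and 5.75, 6.08 and 6.18 in the controls. Its knockout pools lay above the controls by less than the controls differed among themselves. The 4 log2 fold changes were between 0.19 and 0.29, with limma adjusted p-values of 0.551 to 0.696. Without knockout replicate 1 they were between 0.028 and 0.22. Their upper 95% bounds ran from 0.50 to 0.76, so a rise as large as that of Tyrobp was outside every interval.

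Hcst, the adaptor of natural killer receptors, read 4.10 and 4.36 in the knockout and 4.36, 4.36 and 3.86 in the controls at 1419119_at. The groups overlapped, and the log2 fold change was 0.04 (95% interval -0.46 to 0.54, limma adjusted p = 0.961). It was 0.17 without knockout replicate 1. Its value was identical in every deposited digit on 3 of the 5 arrays. Values identical in this way on at least 2 arrays occurred in 15.0% of all probe sets of these data. In the GRCm38.p6 annotation of RefSeq, Hcst (chr7:30417712-30419854) lies 129 bases beyond the end of Tyrobp (chr7:30413782-30417582). Tyrobp thus had the largest difference of the 9 genes at their brightest probe sets, and the member beside it the smallest, at a signal under the array median on every array.

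**Figure D2:**
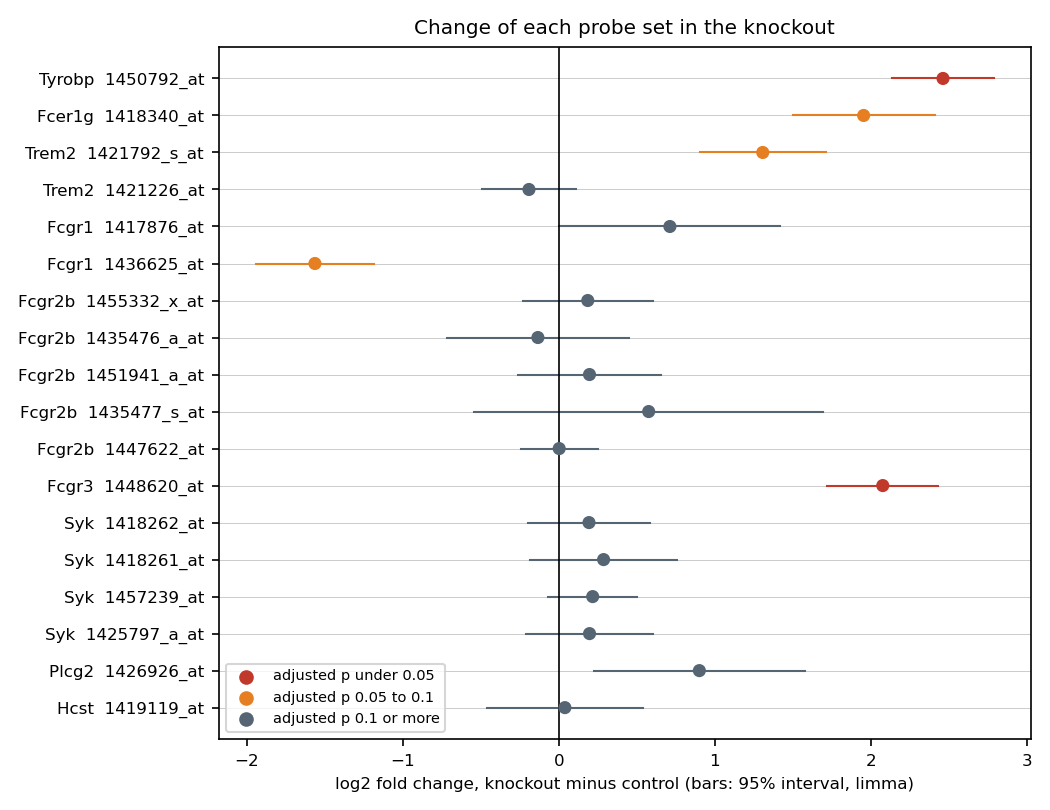
Log2 fold change of knockout minus control (horizontal axis) for each probe set, with 95% intervals from the limma fit as bars and colour by adjusted p. Tyrobp at 2.46 and Fcgr3 at 2.08 are past 0.05, Fcer1g, the brighter Trem2 and the dimmer Fcgr1 probe set lie between 0.05 and 0.1, and the last of these is the only one on the left with an interval clear of 0.

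Counted over probe sets, both knockout arrays were above every control at 9 of 18 and below every control at 2, while 7 overlapped. Over the whole array these shares were 12.9% above and 14.5% below. At their brightest probe set 7 of the 9 genes were above, against 15.8% of all genes, and 0 were below, against 13.9%. Of these 7, Syk cleared its highest control narrowly, at 6.19 against 6.18, as did Fcgr1, at 7.27 against 7.26. The 2 probe sets below every control were the dimmer ones of Fcgr1 and Trem2, which the count by gene leaves out. At an unadjusted p under 0.05, 6 of the 18 probe sets were higher and 1 was lower in limma, against 5.16% and 5.99% of all. Of the 9 genes, 5 reached the array median in a group at their brightest probe set, namely Tyrobp, Fcer1g, Trem2, Fcgr1 and Fcgr3. Syk, Plcg2, Fcgr2b and Hcst stayed under it on every array. A low reading in these arrays does not show that a transcript was absent.

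Most other microglia genes read higher in the knockout, few of them past the adjusted threshold. Outside the 9 genes, 18 markers of microglia were measured. Both knockout pools were above every control at 17 of these markers, against 15.8% of all genes. At an unadjusted p under 0.05, 16 of them were higher and 0 lower, against 5.16% and 5.99% of all probe sets. Over all genes tested 2 of them rose in limma, Lyz2 by 2.98 and Ly86 by 2.42 (adjusted p = 0.0236 for each). The mean log2 level over the markers was 8.32 to 8.36 in the knockout pools and 6.80 to 6.94 in the controls, and their median log2 fold change was 1.37. In pooled tissue more microglia and more RNA of these genes per microglia cannot be told apart. Among the markers, Cx3cr1, Tmem119 and P2ry12 gave 1.85, 1.10 and 1.38, with limma adjusted p-values of 0.0522, 0.165 and 0.227. Aif1, also named by the rule, gave 1.00 (limma adjusted p = 0.0764). The marker with overlapping groups was Siglech, whose product signals through DAP12, at 0.07 (limma adjusted p = 0.917). Tmem119, P2ry12 and Siglech fell outside the naming rule and were picked after their values were seen.

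Set beside these markers, the 9 genes covered nearly their whole range. The median marker exceeded the mean of the controls by 1.25 in knockout replicate 1 and by 1.43 in replicate 2. Tyrobp shifted by 1.28 and 0.97 more than that median marker on the respective arrays. Fcgr3 shifted by 0.91 and 0.56 more and Fcer1g by 0.92 and 0.31 more. Trem2 lay within 0.04 of it on both. Plcg2 shifted by 0.31 and 0.57 less, and the brightest probe sets of Syk, Fcgr2b and Hcst by 0.96 to 1.36 less. Among the 18 markers, 2 had a larger log2 fold change than Tyrobp, 5 a larger one than Fcgr3 and all 18 a larger one than Hcst. These shifts are differences from each probe set's own control mean and do not compare levels between genes.

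**Figure D3:**
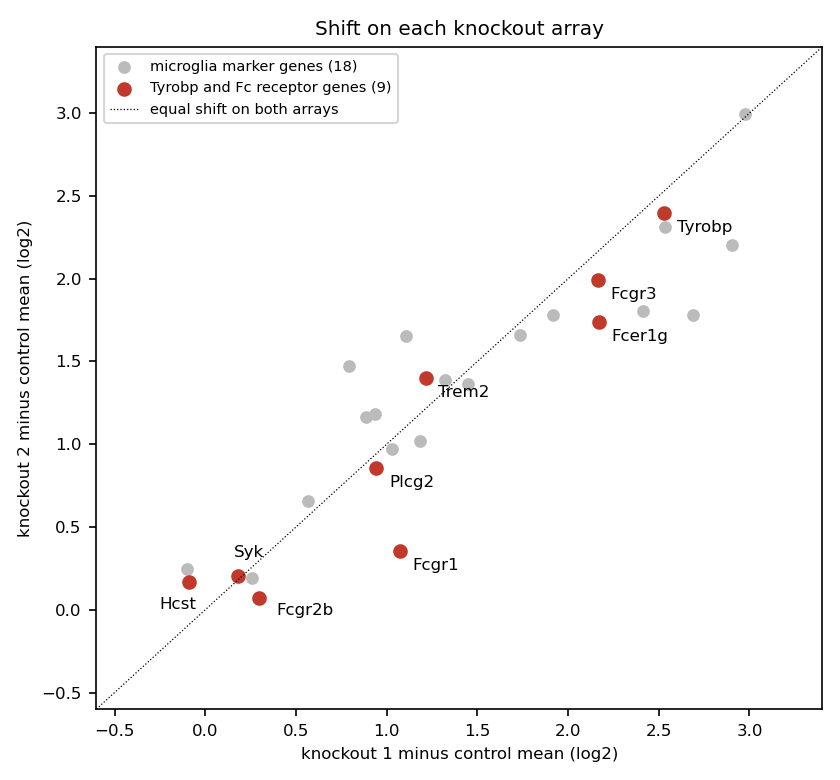
Shift from the control mean (log2) on knockout array 1 (horizontal) against knockout array 2 (vertical) for the 9 genes (red) and 18 microglia markers (grey), each at its brightest probe set, with a dotted line of equal shift. Tyrobp (2.53 and 2.40), Fcgr3 (2.16 and 1.99) and Fcer1g (2.17 and 1.74) sit among the most shifted markers, and Syk, Fcgr2b and Hcst lie near 0 on both arrays.

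Other cell types that use these receptors gave different values. Neutrophils carry Fc gamma receptors, and their 9 measured markers had a median of -0.16, with S100a8 at -2.46 and S100a9 at -2.32 (limma adjusted p = 0.0719 and 0.0865). Their mean log2 level was 3.96 to 4.03 in the knockout and 4.42 to 4.81 in the controls, and 7 of the 9 were under the array median on every array. Mast cells need Fcer1g for their IgE receptor, and their 7 markers had a median of -0.03, with Hdc at -1.93 (limma adjusted p = 0.161) and mean levels of 3.76 to 3.96 against 4.08 to 4.13. Of these 7, 6 were under the array median on every array, and Hdc was the 1 that reached it in a group. Natural killer and T cell markers, which would go with Hcst, had a median of -0.03 over 10 genes at mean levels of 4.76 to 4.88 and 4.84 to 4.91, with 9 of them under the array median everywhere. Border macrophage markers had a median of -0.02 over 10 genes, and their mean levels overlapped, at 5.45 to 5.47 in the knockout and 5.24 to 5.86 in the controls. Of those named by the rule, Stab1 gave 0.62 (limma adjusted p = 0.405), Mrc1 -0.54 and F13a1 0.03. Monocyte markers had a median of 0.24 over 4 genes, of which 3 were under the array median everywhere. The remaining monocyte marker, Vcan, gave 1.21 (limma adjusted p = 0.232), with both knockout pools above every control. The 6 B cell markers had a median of 0.05 and were all under the array median everywhere. In these 6 lists 0 genes passed the adjusted threshold over all genes in limma. At an unadjusted p under 0.05 there were 2 border macrophage, 1 monocyte and 1 B cell marker higher, and 2 neutrophil and 1 mast cell marker lower. Over the array 5.16% of probe sets were higher and 5.99% lower at that p.

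Markers of the relay neurons of the tissue were present, all 9 reaching the array median in a group, while 5 of the 6 erythroid markers were under it on every array. Thalamic relay neuron markers, with mean log2 levels of 11.46 to 11.80 in the knockout and 11.15 to 11.41 in the controls, had a median log2 fold change of 0.20 over 9 genes. The medians were 0.10 for astrocytes and radial glia, 0.11 for endothelium and pericytes, 0.34 for the oligodendrocyte lineage, -0.13 for erythroid cells and 1.32 for prethalamic and GABAergic neurons, and 0 genes of these 6 lists passed the adjusted threshold over all genes in limma. The numbers at an unadjusted p under 0.05, higher and lower, were 1 and 1 for relay neurons, 0 and 0 for astrocytes, 2 and 0 for endothelium, 3 and 1 for oligodendrocytes, 0 and 1 for erythroid cells and 3 and 0 for GABAergic neurons. The shares of all probe sets were 5.16% higher and 5.99% lower. The GABAergic median came from 1 array, being 2.69 in knockout replicate 1 and 0.13 in knockout replicate 2.

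Of the further receptors that couple to ITAM adaptors or activate the same cells, 25 were measured and 23 were under the array median on every array. Their median log2 fold change was 0.00, and 0 passed the adjusted threshold in limma, with 3 higher and 1 lower at an unadjusted p under 0.05. At that p 5.16% of all probe sets were higher and 5.99% lower, and these shares also stand beside the counts of the gene lists below. The 1 receptor of this list bright enough to be named by the rule was Cd300c2, of the CD300 family of lipid-binding receptors. It read 6.90 and 6.61 in the knockout and 5.28 to 5.33 in the controls (log2 fold change 1.45, limma adjusted p = 0.0546). Clec7a, the beta-glucan receptor dectin-1, gave 1.91 (adjusted p = 0.123), and Fcgr4, another activating Fc gamma receptor, gave 1.08 (adjusted p = 0.294). Trem1 gave -0.08 and Treml4 -0.38. These 4 genes were picked after their values were seen.

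Among 10 other Fc receptors and relatives, 0 passed the adjusted threshold in limma and 3 were higher at an unadjusted p under 0.05. Fcrls, an Fc receptor-like gene known from mouse microglia, read 9.34 and 8.84 against 7.05 to 7.44 (log2 fold change 1.88, adjusted p = 0.0786). Trim21, a cytosolic antibody receptor, gave 0.75 (adjusted p = 0.153). Fcgrt, the neonatal Fc receptor that carries maternal antibody, gave 0.24 with overlapping groups, and Fcmr, the receptor for immunoglobulin M, gave -0.60.

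Around Syk, 29 kinases and adaptors had a median of 0.06. The adjusted threshold was passed by 0 of them in limma, and 4 were higher and 1 lower at an unadjusted p under 0.05. Fyb, an adaptor of haematopoietic cells, gave 1.85 (adjusted p = 0.338), its controls spreading from 4.88 to 6.86. Lcp2, the scaffold SLP-76, gave 0.30, Pik3cd, a leukocyte catalytic subunit of phosphatidylinositol 3-kinase, -0.44 and Vav3 -0.30. Vav1, the exchange factor of blood cells, gave 1.32 (adjusted p = 0.0736), and Btk, a kinase that activates the Plcg2 product, 0.50 (adjusted p = 0.395), both chosen after their values were seen and both under the array median.

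The 21 effectors below Syk and Plcg2 had a median of 0.03, with 0 past the adjusted threshold in limma and 4 higher at an unadjusted p under 0.05. Rac2, the Rac GTPase of haematopoietic cells, read 7.16 and 7.05 against 5.95 to 6.20 (log2 fold change 1.04, adjusted p = 0.0865). Nckap1l, a subunit of the WAVE complex in those cells, gave 0.69, Prkcb 0.48 and Itpr2 0.27. Plcg1, the widely expressed relative of Plcg2, gave -0.15, and it was picked after its value was seen.

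Inhibitory receptors and phosphatases numbered 23, with a median of 0.14, 0 past the adjusted threshold in limma and 7 higher at an unadjusted p under 0.05. Inpp5d, which encodes the phosphatase SHIP1, read 6.95 and 7.42 in the knockout and 5.86 to 6.18 in the controls (log2 fold change 1.16, adjusted p = 0.136). Lair1, an inhibitory collagen receptor, gave 1.05 (adjusted p = 0.172) and Cd300a, an inhibitory lipid receptor, 0.86 (adjusted p = 0.219). Ptprj, a receptor phosphatase, gave -0.39.

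Of 18 genes of Trem2 ligands, the Csf1r axis and DAP12-linked partners, 0 passed the adjusted threshold in limma and 6 were higher at an unadjusted p under 0.05, with a median of 0.17. Csf1r, the growth factor receptor on which microglia depend, read 11.65 and 10.75 against 8.61 to 9.18 (log2 fold change 2.24, adjusted p = 0.120). Lpl, lipoprotein lipase, gave 1.98 (adjusted p = 0.0649), Irf8, a transcription factor of microglia, 0.88 (adjusted p = 0.138) and Adam17, a sheddase of Trem2, 0.34. Plxna1, the gene of plexin-A1, gave 0.08 (adjusted p = 0.917) with overlapping groups. Sema6d, the gene of the semaphorin that plexin-A1 answers, gave -0.17 (adjusted p = 0.625). It read 11.64 and 11.55 against 11.69 to 11.84, so the difference was small but the groups did not overlap. Apoe, a Trem2 ligand, gave 0.16 (adjusted p = 0.876). These 3 were picked after their values were seen.

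**Figure D4:**
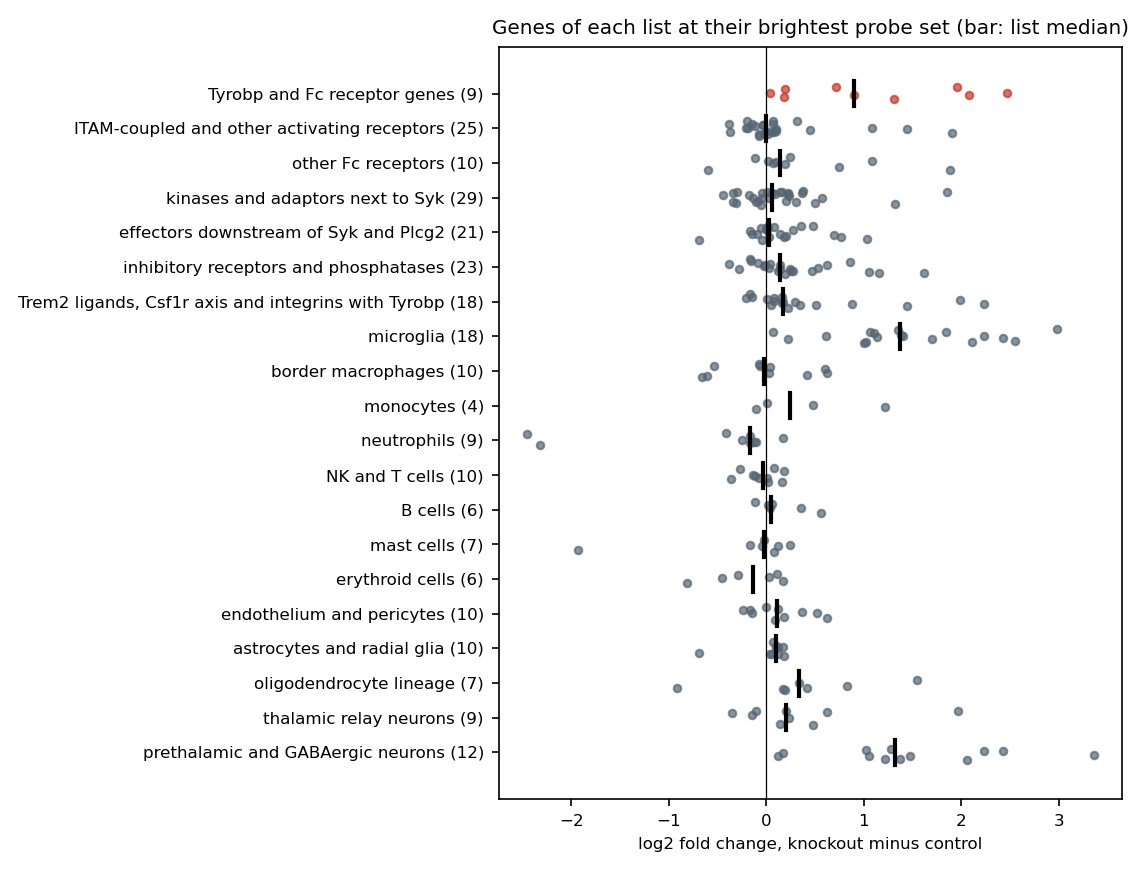
Log2 fold change of knockout minus control (horizontal axis) of every measured gene of each list at its brightest probe set, 1 point a gene, with the list median as a black bar and the number of genes in brackets. The median is 0.90 for the 9 genes (red), 1.37 for microglia and 1.32 for prethalamic and GABAergic neurons (2.69 in knockout replicate 1 and 0.13 in replicate 2), and between -0.16 and 0.34 for every other list.

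The genes whose pattern over the 5 arrays was most like that of Tyrobp were sought with 1 probe set a gene, the brightest, by the root mean square distance after centring on the control mean. The nearest was Ly86, whose product MD-1 binds the receptor RP105, at a distance of 0.038 on the log2 scale. Next came Igf1, a growth factor gene, at 0.119, then Pcdh17, a protocadherin gene of neurons, at 0.196, Vwc2l at 0.207 and Cd84, a receptor of leukocytes, at 0.237. Fcgr3 ranked 10 and Fcer1g ranked 22 of all genes by that distance, Trem2 ranked 124, and Hcst ranked 8091. With 5 arrays in 2 groups such likeness rests mostly on a like difference between the groups.

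The promoters of the members were compared because several of these genes differed together. A window from 250 bases before to 50 bases after each start in a RefSeq set of promoters (GRCm38.p6) was taken. In that set 8 of the 9 genes, all but Tyrobp, matched, with 10 windows. The annotated spans of Fcgr3 and Syk begin further upstream than the starts given there, and those upstream ends were not searched. The motif searched was GAGGAA, a longer form of the GGAA core bound by the myeloid factor PU.1 and its relatives. It was searched on both strands, and on the opposite strand it reads TTCCTC. It was found in 5 of the 10 windows and in 4 of the 8 genes, Fcgr1, Fcgr3, Trem2 and Syk, the last at its second start only. Among all 32851 windows given there, 28.3% held it, and among all 27025 genes 31.3% had it in at least 1 window. The windows of the Fc receptors that use the gamma chain and of Trem2 are shown for where the motif sits, in capitals. Those of Fcer1g and Hcst, a gene with a large difference and one with almost none, are shown for comparison. Neither holds GAGGAA, but both hold the shorter GGAA.
Fcgr3, first start, chr1:171059354-171059653, minus strand: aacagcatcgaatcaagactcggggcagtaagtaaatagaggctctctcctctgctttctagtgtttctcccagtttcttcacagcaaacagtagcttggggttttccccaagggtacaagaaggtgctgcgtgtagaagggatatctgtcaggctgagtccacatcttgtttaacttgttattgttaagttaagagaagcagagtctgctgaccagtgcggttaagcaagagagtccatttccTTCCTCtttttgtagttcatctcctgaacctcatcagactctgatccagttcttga
Fcgr1, chr3:96293920-96294219, minus strand: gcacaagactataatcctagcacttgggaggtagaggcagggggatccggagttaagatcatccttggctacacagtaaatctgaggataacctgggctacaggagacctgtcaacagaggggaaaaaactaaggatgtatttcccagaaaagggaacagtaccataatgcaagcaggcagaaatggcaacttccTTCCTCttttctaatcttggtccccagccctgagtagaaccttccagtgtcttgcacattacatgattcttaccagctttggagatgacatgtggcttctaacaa
Trem2, chr17:48346151-48346450, plus strand: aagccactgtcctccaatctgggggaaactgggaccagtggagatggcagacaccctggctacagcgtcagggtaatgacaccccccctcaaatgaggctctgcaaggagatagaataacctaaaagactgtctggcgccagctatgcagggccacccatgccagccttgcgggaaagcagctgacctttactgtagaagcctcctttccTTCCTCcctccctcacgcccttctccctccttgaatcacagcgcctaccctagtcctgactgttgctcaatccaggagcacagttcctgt
Fcer1g, chr1:171234300-171234599, minus strand: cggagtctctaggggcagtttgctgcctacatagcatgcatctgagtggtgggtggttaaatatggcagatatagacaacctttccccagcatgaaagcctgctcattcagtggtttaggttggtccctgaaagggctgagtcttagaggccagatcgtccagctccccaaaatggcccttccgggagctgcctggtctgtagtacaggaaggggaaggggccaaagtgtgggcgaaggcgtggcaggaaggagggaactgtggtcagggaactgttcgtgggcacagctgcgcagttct
Hcst, chr7:30419805-30420104, minus strand: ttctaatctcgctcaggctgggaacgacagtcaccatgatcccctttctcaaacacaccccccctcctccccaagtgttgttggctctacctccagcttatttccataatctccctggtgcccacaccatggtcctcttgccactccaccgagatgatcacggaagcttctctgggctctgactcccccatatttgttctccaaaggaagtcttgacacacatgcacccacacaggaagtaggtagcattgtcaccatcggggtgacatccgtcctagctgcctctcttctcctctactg

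The motif began 6 bases before the first start used for Fcgr3, 55 before that of Fcgr1 and 40 before that of Trem2, each time on the opposite strand. Around it Fcgr1 and Fcgr3 shared a run of 14 bases, TTCCTTCCTCTTTT, which no other gene's window held when read along its own gene. The opposite strand of the windows was not searched for this run. A match of letters is a description and shows no binding. Spi1, the gene of PU.1, gave a log2 fold change of 0.29 (limma adjusted p = 0.650), with overlapping groups under the array median. It was picked after its value was seen, and its part in the members' values was not tested. Fcgr1 and Fcgr3, with the shared run, gave 0.71 and 2.08 at their brightest probe sets, and Fcer1g, without the motif, gave 1.95. The dimmer Fcgr1 probe set gave -1.56, so no direction is given for Fcgr1 here either.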

How the data were processed

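Total RNA of microdissected dLGN tissue (20 ng) was amplified, labelled with biotin and hybridised to Affymetrix arrays, per the labels' protocols. The authors deposited 1 log2 value for each probe set and array, computed with RMA per the submitters' processing notes, with version and settings not given in the sources used here. RMA draws array distributions together and compresses differences near background. Of 45101 probe sets 64 array controls were left out. Knockout minus control was fitted on all 45037 in limma 3.58.1 (lmFit, eBayes; R version 4.3.3; genotype as the only term, two-sided, Benjamini-Hochberg over all probe sets), and the code was tested on simulated data. No exact permutation test was run, as 2 arrays against 3 cannot give a p below 0.1. Precision is limited by the number of arrays.

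Symbols came from the platform annotation, and probe sets with several genes (932) were not used by name. A gene stands for its probe set with the highest mean. From each list up to 4 genes were named, those with the smallest p that reached the array median of 6.41 in a group. Others are marked as chosen after their values were seen. The members and lists were chosen with earlier results of these data known. The alternatives were a replicate block, further quantile normalisation, centring, a filter on dim probe sets, an intensity trend, a robust prior, array weights, each array left out, a threshold of 0.1 and the mean of a gene's probe sets. The labels name no batch.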

Additional observations from a re-analysis of the deposited data

How the results depend on the processing

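The direction of Tyrobp, Fcer1g, Fcgr3, Plcg2, the 4 Syk probe sets and both probe sets of Trem2 and Fcgr1 held under every alternative that tested them. With any 1 array left out, 0 probe sets of the array and 0 of the members passed in limma, and 3694 to 8397 probe sets of the array had an unadjusted p under 0.05, among them 5 to 6 of the 18. The median over the 9 genes then lay between 0.72 and 1.16. The replicate number was also fitted as a replicate block on the 4 arrays with shared numbers. The labels do not say that these numbers pair pools, and the correlations of deviations between same-numbered arrays were 0.15 and 0.21. The replicate block gave 0 calls over the array and among the members (unadjusted p under 0.05 at 4950 probe sets, 7 of them members) and a median of 1.16. Leaving out dim probe sets gave 114 calls over the array and 4 member probe sets, adding Fcer1g and the Fcgr1 probe set with negative sign, with a median of 1.95 over the 5 genes left. An intensity trend gave 100 calls, and array weights gave 19, with Tyrobp as the 1 member probe set and gene. At a threshold of 0.1 there were 158 calls, 5 member probe sets and 4 member genes. With the mean of a gene's probe sets the median was 0.56. Signs changed only at dim probe sets: Hcst gave -0.13 with the replicate block and -0.015 with array weights, and its sign changed without knockout replicate 2 and without control replicate 3. With any 1 array left out, Hcst ranged from -0.13 to 0.17, and Fcgr2b from -0.40 to 0.13 at 1435476_a_at, from -0.0092 to 1.16 at 1435477_s_at and from -0.0029 to 0.0068 at 1447622_at, the 3 Fcgr2b signs changing without knockout replicate 1. The last gave -0.029 after further quantile normalisation. The causes of these changes were not tested. Some settings also leave fewer probe sets or arrays, and the part of that was not tested either.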

Other observations

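Genes that lie close to the members in the GRCm38.p6 annotation were looked at after the values of the members were seen. Between Fcgr2b and Fcer1g on chromosome 1, 7 further genes were measured. The Fc receptor gene Fcgr4 was the 1 gene there with both knockout pools above every control, at 5.45 and 4.56 against 3.80 to 4.14. The groups also did not overlap for 4 genes that were lower in the knockout, among them Pcp4l1 (-0.86), a gene of neurons, and Apoa2 (-0.60), an apolipoprotein gene next to Fcer1g. Over all genes 15.8% had both knockout pools above every control and 13.9% had both below. In limma 0 of the 7 passed the adjusted threshold, and Fcgr4, Pcp4l1 and Apoa2 had an unadjusted p under 0.05. Of all probe sets 5.16% were higher and 5.99% lower at that p.

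Within 50 kb of Tyrobp and Hcst on chromosome 7, 4 further genes were measured, with log2 fold changes between -0.27 and 0.14. Aplp1, a gene of the amyloid precursor family, read 13.12 and 13.10 in the knockout and 12.93 to 13.03 in the controls, and 0 of the 4 passed the adjusted threshold or an unadjusted p under 0.05 in limma.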
